A study of Mus musculus with 21 samples.

Results

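Bone marrow-derived macrophages from mice on a standard chow diet were compared with and without bacterial lipopolysaccharide (LPS). The comparison covers 6 of the 21 RNA-seq libraries of the series, chosen by their labels: 3 untreated libraries and 3 libraries of cells given LPS. The 21 libraries form 7 groups of 3, and the other 5 groups are not used here except where stated. All cells came from C57Bl6/J mice of 24 weeks and were grown from bone marrow in RPMI-1640 with 10% FCS, 1% P/S and 30% supernatant of L929 cells, a fibroblast line whose medium supplies macrophage growth factor. On day 7 the treated cultures were given E. coli LPS at 100 ng/ml and kept with it for 24 h, and the untreated cultures were given none. The labels do not say whether the untreated cells were harvested on day 7 or after the same further 24 h. They also do not say whether replicates were separate mice or separate cultures, so every p-value below measures only the spread between libraries. That spread was pooled over 12 libraries fitted together in 4 groups of 3. Beside the 6 compared, these include cells given fatty acid before LPS, with or without the compound TAK242.

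LPS is an outer membrane component of Gram-negative bacteria. CD14 and MD-2 (encoded by Ly96) present it to Toll-like receptor 4, and the adaptors MyD88 and TRIF then lead to NF-kB and to interferon regulatory factors. In macrophages the first route induces cytokines and chemokines, and the second induces type I interferon, which acts back on the cells through its receptor and raises antiviral genes.

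Each value below is the deposited expression value of a gene in 1 library, a normalised level per gene whose unit is not named in the file. Library sums of these values ranged from 353248 to 384341 over the 6 libraries, and read depth is not given. Differences are on the scale log2(value + 1), LPS minus untreated, so that the change of a gene with low values comes out too small. Of the genes in the table, 10476 reached a value of 1 in at least 3 of its 12 libraries and were tested with limma and Benjamini-Hochberg adjustment. A gene was called higher or lower when its adjusted p was under 0.05. By that rule 6463 genes (61.7%) changed, of which 1444 (13.8% of those tested) were higher and 5019 (47.9%) were lower with LPS. At least 2-fold changes were fewer, with 638 genes (6.09%) higher and 1447 (13.8%) lower. The median gene stood at -0.31. Scaling the libraries by median ratios raised the median by 0.32 to 0.01 and made the calls even, with 2847 genes (27.2%) higher and 2822 (26.9%) lower. A small fall below is therefore a fall relative to the library sum and can be lost under scaling. Under scaling 921 genes (8.79%) were at least 2-fold higher, among them all 638, and 906 (8.65%) at least 2-fold lower, all of them among the 1447. Genes at least 2-fold higher made up 5.89 to 6.17% of the library sum in untreated cells and 30.0 to 35.4% with LPS. As these are bulk samples, a lower value from fewer cells of a type and from less RNA per cell cannot be told apart.

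The 3 LPS libraries differed among themselves more than the untreated ones. Among the 638 genes, the median SD of log2(value + 1) between libraries was 0.121 in untreated cells and 0.391 with LPS. These genes were chosen as high with LPS, and adding 1 compresses their low untreated values. Over all genes tested the medians were 0.122 and 0.162, and over the 1447 genes at least 2-fold lower 0.126 and 0.196. Of the 638 genes at least 2-fold higher, LPS replicate 1 held the highest LPS value for 278 and the lowest for 299. LPS replicate 3 held the highest for 259 and the lowest for 288. Values of each library are given for that reason. A second deposited table holds 3 more untreated chow libraries, called second controls below. Whether both were normalised together is not given in the sources used here. Their values are set beside a result as levels, with no test. Of 187 genes named in the text and called, 156 had all LPS values beyond all 3 second controls in the direction of the call, 19 had an LPS range that overlapped theirs and 12 had all LPS values on the opposite side; those 12 are named where they are described.

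The cell type label was checked against marker genes. All 10 macrophage markers were tested, and 7 were called higher and 1 lower, with and without scaling (median 0.80, 1.15 under scaling). Their summed value was 9714 to 10829 in untreated cells and 10395 to 10724 with LPS. Most of that sum was Lyz2, at 7602 to 8720 untreated and 7227 to 8197 with LPS, so it says little about the other markers. Adgre1, which encodes the F4/80 antigen, rose from 367, 345 and 364 to 1048, 1399 and 1439. Cd68, a lysosomal macrophage marker and the only one called lower, fell from 1221, 1196 and 1158 to 511, 546 and 576. No T cell, NK cell, mast cell or erythroid marker passed the filter. Of 9 dendritic cell markers 1 passed and was called higher (2.86), while Flt3, Siglech and Zbtb46 had values of at most 0.0194. The summed dendritic marker value was 122 to 132 untreated and 628, 1107 and 1122 in LPS replicates 1 to 3. That sum is almost wholly the 1 marker that passed, as the other 8 stayed below the filter, so it is not a measure of dendritic cells. Of 7 B cell markers 1 passed and was called lower (-1.39). Of 11 neutrophil markers 3 were called higher (Camp, S100a8 and Csf3r), while Ly6g, Cxcr2, Mpo and Elane were at or below 0.327. Without LPS replicate 1 the count was 5. The summed neutrophil marker value was 44.9 to 61.3 untreated and 145 to 397 with LPS. Of 10 stromal markers 6 were tested and 5 called higher, among them the collagens Col1a1 and Col3a1 (changes of 1.35 and 1.02). The summed stromal marker value was 20.4 to 32.7 untreated and 34.3 to 69.5 with LPS. Lum was at 0 in all 6 libraries. The part of stromal, neutrophil or dendritic cell RNA in the results below was not tested.

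One property of the table bears on genes that seem silent. Of 1286 protein-coding genes whose annotated transcripts all have 1 exon, 38 (2.95%) reached a mean of 1 over the 6 libraries, against 8981 of 20443 (43.9%) of those with a spliced transcript. The 8 such genes among the lists described here, which include Cebpb, Ch25h, Ier2, Ifnb1, Jun, Jund and Thbd, all had means below 1. A value at or near 0 for Ifnb1, Jun or Cebpb is therefore not read here as absence of the transcript, and the cause was not tested.

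**Figure D1:**
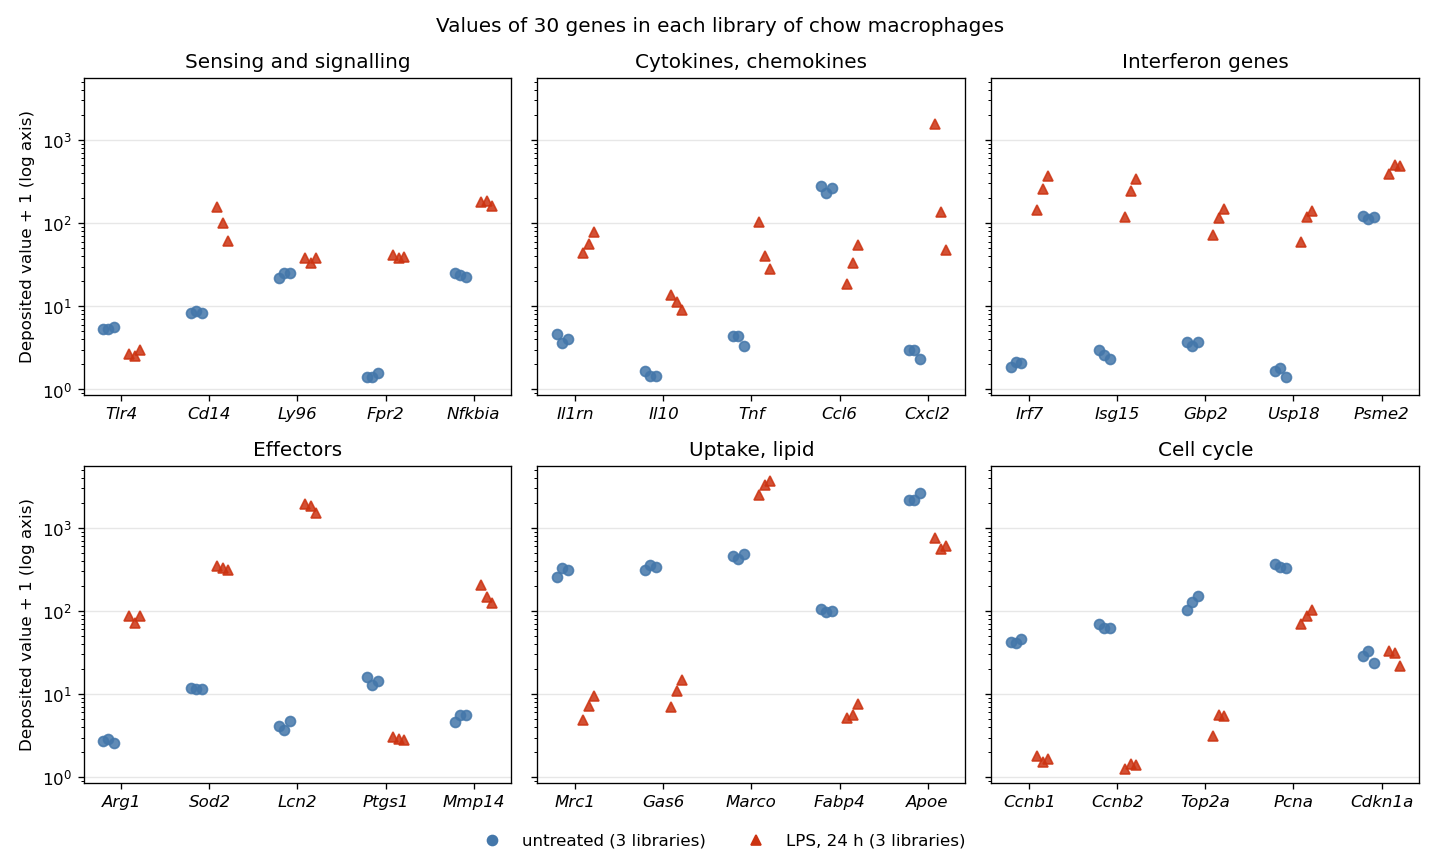
Deposited values plus 1, on a log axis, of 30 genes in the 3 untreated libraries (blue circles) and the 3 LPS libraries (red triangles). Within each group the points stand from left to right for replicates 1 to 3. Cdkn1a is the gene shown whose groups overlap, and Cxcl2 has the widest spread between LPS libraries of the genes shown.

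LPS lowered the message of its own receptor and raised that of the co-receptors. Tlr4 had values of 4.27, 4.31 and 4.63 in untreated cells and 1.70, 1.52 and 1.94 with LPS, a log2 change of -0.99 (SE 0.08, adjusted p = 1.09e-06). Cd14, the surface protein that hands LPS to the receptor, had values of 7.27, 7.79 and 7.21 in untreated cells and 157, 98.2 and 60.0 with LPS, a log2 change of 3.55 (SE 0.31, adjusted p = 2.40e-06). Ly96 had values of 21.2, 24.0 and 24.5 in untreated cells and 36.8, 32.4 and 36.7 with LPS, a log2 change of 0.58 (SE 0.09, adjusted p = 1.59e-04). The groups did not overlap for any of these genes, and the Cd14 values of the LPS libraries were more widely spread than those of Tlr4 and Ly96. Lbp, the serum protein that carries LPS, fell by 1.58 (adjusted p = 1.07e-06) to 1.14, 1.28 and 1.91, but the second controls, at 0.136, 0.0546 and 0.0325, lay below every LPS value. Irak3, an inhibitor of the pathway, had values of 6.80, 5.36 and 6.32 in untreated cells and 52.0, 47.4 and 41.0 with LPS and was higher in every LPS library, though it shares bases with Tmbim4 and its value is uncertain. Myd88 rose by 1.29 (adjusted p = 2.02e-06) and shares bases with Acaa1a. Over the list of 19 receptor and adaptor genes 6 were higher and 8 lower, with a median of -0.31, the same as all genes; under scaling the counts were 7 and 6.

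Of 20 receptors for other microbial signals tested, 12 were higher and 5 lower (median 0.87, 13 and 3 under scaling). Clec4e, the Mincle receptor for mycobacterial glycolipid, had values of 7.96, 7.38 and 6.46 in untreated cells and 519, 579 and 455 with LPS, a log2 change of 5.97 (SE 0.27, adjusted p = 1.71e-08). Clec4d, its neighbour in the same gene cluster, started high at 519, 482 and 481 and reached 1368, 810.1 and 736. Both formyl peptide receptors that guide cells to bacteria rose from values below 1. Fpr2 had values of 0.395, 0.418 and 0.588 in untreated cells and 39.9, 36.6 and 38.3 with LPS, a log2 change of 4.74 (SE 0.09, adjusted p = 3.55e-11). Fpr1 reached 52.5, 37.3 and 37.6, and Zbp1, a sensor of Z-form nucleic acid, rose by 5.90 (adjusted p = 7.67e-10). The 3 LPS values of Fpr2 lay close together, unlike those of Cd14.

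Subunits and feedback inhibitors of NF-kB rose together. Of 18 genes for subunits and inhibitors 14 were higher and none lower (median 1.46), and under scaling 15 were higher. Nfkbia, the inhibitor that holds NF-kB in the cytoplasm, had values of 24.4, 23 and 21.6 in untreated cells and 179, 185 and 158 with LPS, a log2 change of 2.86 (SE 0.13, adjusted p = 2.00e-08). Nfkbiz, a nuclear cofactor needed for a set of secondary genes, had values of 0.567, 0.922 and 0.807 in untreated cells and 20.5, 16.2 and 12.1 with LPS, a log2 change of 3.27 (SE 0.17, adjusted p = 3.77e-08). Tnfaip3, the ubiquitin-editing enzyme A20, had values of 2.24, 4.37 and 3.59 in untreated cells and 35.4, 16.6 and 14.1 with LPS, a log2 change of 2.31 (SE 0.29, adjusted p = 4.90e-05). Nfkbiz and Tnfaip3 were highest in LPS replicate 1, as were 14 of the 18 genes. Tnip3, a partner of A20, was 1.65 higher than the untreated libraries (adjusted p = 3.43e-07) at 13.2, 10.8 and 10.3, but the second controls stood above every LPS value, at 19.8, 24.1 and 22.7. Among phosphatases of the MAP kinase feedback, Dusp1 rose by 1.41 (adjusted p = 5.02e-06) and Dusp16 by 1.33 (adjusted p = 1.27e-04). Ier3 rose by 2.26 (adjusted p = 1.49e-05). Atf3, a transcription factor induced by stress, fell by 0.63 (adjusted p = 0.00119), a call lost under scaling (-0.26, adjusted p = 0.075). Its LPS values of 17.7, 14.1 and 16.7 were above the second controls, at 7.87, 8.26 and 7.71. Of the 11 tested members of the early response list 4 were higher and 2 lower, and 13 further members stayed below the filter. Zc3h12a, which encodes the RNase Regnase-1 that cuts cytokine messages, rose by 2.11 (adjusted p = 1.60e-06). Zfp36l2, which promotes decay of AU-rich messages, fell by 0.92 (adjusted p = 1.43e-06). The list of 13 decay regulators was mixed, with 5 higher and 4 lower, the latter 2 when untreated replicate 2 or LPS replicate 2 was left out.

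Cytokine messages rose, including those that restrain inflammation. Of 17 tested 15 were higher and none lower (median 1.91), also under scaling. Tnf had values of 3.40, 3.42 and 2.37 in untreated cells and 101, 39.0 and 27.3 with LPS, a log2 change of 3.60 (SE 0.39, adjusted p = 1.32e-05). Il10, the main anti-inflammatory cytokine of macrophages, had values of 0.667, 0.445 and 0.459 in untreated cells and 12.9, 10.2 and 8.01 with LPS, a log2 change of 2.88 (SE 0.16, adjusted p = 8.63e-08). Il1rn, the antagonist of the interleukin-1 receptor, had values of 3.62, 2.62 and 3.08 in untreated cells and 43.0, 55.2 and 77.9 with LPS, a log2 change of 3.83 (SE 0.20, adjusted p = 3.72e-08). Tnf was highest in LPS replicate 1 and Il1rn highest in LPS replicate 3, and neither overlapped its untreated values. Il1b itself ranged over 1987, 543 and 262 in the LPS libraries from 0.142, 0.103 and 0.193 untreated. Il6 stood at 40.3, 11.0 and 4.11 with LPS and at 0 in 2 of the 3 untreated libraries (adjusted p = 2.62e-04). Il12b, a subunit of interleukin-12 and interleukin-23, reached only 3.52, 3.36 and 1.8 from at most 0.0225, and Inhba, an activin subunit, reached 1.46, 1.26 and 1.39. Ifnb1 was at 0 in all 6 libraries, and it is one of the genes without introns named above.

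Most chemokines rose, but they differed in which LPS library was highest. Of 19 tested 16 were higher and 2 lower (median 2.47, 16 and 1 under scaling). Ccl5, an attractant of T cells and monocytes (chromosome 11, 83525778 to 83530518), went from 0.557, 0.419 and 0.645 to 3495, 5431 and 6705. Its change of 11.68 was the largest of any gene tested, next to 11.65 for Saa3, and under scaling Saa3 came first. Cxcl2 and Cxcl3, neutrophil attractants of 1 cluster on chromosome 5, were among the 10 genes with the widest spread between LPS libraries. Cxcl3 (90786103 to 90789600) had values of 0.136, 0.0216 and 0.150 in untreated cells and 1531, 102 and 28.2 with LPS, a log2 change of 7.24 (SE 1.07, adjusted p = 1.43e-04). Cxcl2 (90903871 to 90905938) had values of 2.02, 2.01 and 1.33 in untreated cells and 1574, 134 and 46.3 with LPS, a log2 change of 6.28 (SE 0.96, adjusted p = 1.89e-04). In both, LPS replicate 1 was far above the other 2 libraries, and all 3 stayed above the untreated values. Cxcl1 reached 117, 5.73 and 1.66, and its log2 change of 3.67 dropped to 2.06 without LPS replicate 1. Cxcl10, a T cell attractant induced by interferon, ran the other way, with 24.1, 58.5 and 92.8 in LPS replicates 1 to 3 from at most 0.181 untreated. Ccl2, the monocyte attractant, had values of 73.8, 81.7 and 49.2 in untreated cells and 210.4, 574 and 734 with LPS and was likewise lowest in LPS replicate 1. Ccl3, which attracts monocytes and neutrophils, was highest there instead, with 1434, 373 and 204 in LPS replicates 1 to 3 and 53.8, 55.1 and 48.3 untreated. Ccl6 was the chemokine with the largest fall, with values of 275, 232 and 262 in untreated cells and 17.4, 32.0 and 53.9 with LPS, a log2 change of -3.00 (SE 0.29, adjusted p = 6.14e-06). In the second controls Ccl6 stood at 6.34, 4.32 and 5.51, below every LPS value, so the direction turns against them. Pf4, platelet factor 4, rose from 1106, 816 and 1063 to 2387, 1644 and 1568. Among receptors for chemoattractants, Cxcr4, the receptor for CXCL12, fell from 10.5, 7.41 and 8.86 to 0.431, 0.509 and 0.598 and Gpr84, which senses medium-chain fatty acids, rose from 0.765, 0.955 and 0.739 to 40.5, 33.1 and 24.0. Of the 11 receptors tested 3 were higher and 3 lower.

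Promoters of 5 genes with the largest changes are printed, as those with a match near the start for each of 4 motifs. The 250 bases before the start were taken from RefSeq (GRCm38.p6) and searched on both strands for the interferon response core (GAAA, any 2 bases, GAAA), the NF-kB consensus, the CCAAT box and the cell cycle element TTTGAA. Capitals mark the letters of any of the 4, which may overlap. Shown first are Cxcl3 (chr5:90785851-90786100, plus strand), with NF-kB matches starting 73 and 72 bases before the start, and Saa3, an acute phase protein described below (chr7:46715677-46715926, minus strand), with an interferon core 125 bases before it.
Cxcl3: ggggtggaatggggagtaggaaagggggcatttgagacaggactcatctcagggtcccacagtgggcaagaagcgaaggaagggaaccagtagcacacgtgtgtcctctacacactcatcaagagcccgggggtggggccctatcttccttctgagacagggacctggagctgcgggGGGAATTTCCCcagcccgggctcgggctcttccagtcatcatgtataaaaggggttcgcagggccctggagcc
Saa3: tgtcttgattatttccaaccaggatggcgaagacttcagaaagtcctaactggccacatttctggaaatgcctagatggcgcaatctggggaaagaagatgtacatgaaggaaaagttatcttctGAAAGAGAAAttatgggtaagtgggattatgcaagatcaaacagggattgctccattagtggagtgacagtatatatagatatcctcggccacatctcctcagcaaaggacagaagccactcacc
The other 3 belong to genes of cell division that fell. Ccnb2 (chr9:70421555-70421804, minus strand) has CCAAT boxes 87, 54 and 21 bases before the start and the cell cycle element at 167. Top2a (chr11:99024190-99024439, minus strand) has 6 CCAAT boxes and the cell cycle element at 179 and 23. Birc5 (chr11:117848987-117849236, plus strand) holds an NF-kB match at 44. Among promoters with a match that are not printed, Cdca3, which fell, holds an interferon core at 215. Ms4a4c, which rose, holds the cell cycle element at 162. Chil1, which rose, has an NF-kB match at 179, and Mrc1, which fell, has the cell cycle element at 129.
Ccnb2: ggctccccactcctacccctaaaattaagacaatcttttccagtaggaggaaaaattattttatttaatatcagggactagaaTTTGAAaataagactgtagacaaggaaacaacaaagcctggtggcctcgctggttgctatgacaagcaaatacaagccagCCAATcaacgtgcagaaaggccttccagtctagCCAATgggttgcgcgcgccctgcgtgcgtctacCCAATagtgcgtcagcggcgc
Top2a: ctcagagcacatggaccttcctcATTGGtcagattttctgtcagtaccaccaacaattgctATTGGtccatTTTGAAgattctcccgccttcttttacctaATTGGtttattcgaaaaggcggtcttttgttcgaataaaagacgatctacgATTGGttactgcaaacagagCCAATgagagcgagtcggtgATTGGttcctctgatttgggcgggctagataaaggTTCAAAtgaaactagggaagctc
Birc5: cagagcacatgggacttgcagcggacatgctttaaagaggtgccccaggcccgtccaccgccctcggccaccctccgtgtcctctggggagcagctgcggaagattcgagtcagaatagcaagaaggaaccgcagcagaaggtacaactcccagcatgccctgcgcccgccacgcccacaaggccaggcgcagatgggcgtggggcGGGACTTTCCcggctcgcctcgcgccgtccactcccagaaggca
A match is a string of letters and not a shown binding site. The interferon core was found in 3.09% of the 7706 promoters of tested genes that could be matched, in 12.9% of 435 of genes at least 2-fold higher and in 12 of 30 promoters of the antiviral list. The NF-kB consensus was found in 4.39% of tested genes, in 10.3% of those at least 2-fold higher and in 4.56% of 1074 at least 2-fold lower. It was present in 8 of 15 promoters of the NF-kB list, in 8 of 17 of class I antigen presentation, in 5 of 13 of the chemokines and in 3 of 12 of the inflammatory cytokines. The CCAAT box was found in 37% of tested genes, in 30.3% of those at least 2-fold higher and in 45% of those at least 2-fold lower. It was present in 23 of 27 promoters of the mitosis list and in 15 of 17 of cholesterol synthesis. Among class I antigen presentation genes, all of which rose, 12 of 17 promoters held it. The cell cycle element was found in 11% of tested genes, in 11 of 27 of the mitosis list and in 9 of 30 of the antiviral list. Its share was 15.2% among genes at least 2-fold higher and 14.2% among those at least 2-fold lower.

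Antiviral genes induced by interferon were the list with the highest median. Of 36 tested 35 were higher and none lower (median 2.98), and under scaling all 36 were higher. Isg15, a ubiquitin-like protein, had values of 1.95, 1.63 and 1.35 in untreated cells and 117, 245 and 341 with LPS, a log2 change of 6.35 (SE 0.30, adjusted p = 1.95e-08). Oasl1, a relative of the 2-5A synthetases, had values of 0.0459, 0.142 and 0.0840 in untreated cells and 57.4, 67.5 and 81.3 with LPS, a log2 change of 5.99 (SE 0.20, adjusted p = 1.91e-09). Oas2, a sensor of double-stranded RNA that activates RNase L, rose by 3.06 (adjusted p = 2.46e-08) and Oas1g by 4.36 (adjusted p = 2.36e-08). LPS replicate 1 gave the lowest of the 3 LPS values for 34 of the 36 genes, and its values were still above the untreated ones for every gene named here. Irf7, the regulator that amplifies interferon production, rose from 0.889, 1.13 and 1.09 to 144, 254 and 367. Usp18, an inhibitor of type I interferon signalling, rose from 0.655, 0.834 and 0.398 to 58.1, 119 and 141. Irf9, the DNA-binding subunit of the complex that interferon activates, rose by 1.29 (adjusted p = 1.39e-06; it shares bases with Rnf31), and Batf by 1.8 (adjusted p = 2.49e-06). Socs3, an inhibitor of cytokine signalling, was at most 0.105 untreated and 1.66, 1.87 and 1.48 with LPS. Over 18 IRF, STAT and SOCS genes 11 were higher and 2 lower (13 and 1 under scaling).

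The interferon-inducible GTPases, which attack membranes around intracellular microbes, followed the same order of libraries. Of 16 tested 14 were higher and none lower (median 1.84). Gbp2 had values of 2.72, 2.31 and 2.77 in untreated cells and 70.1, 114 and 147 with LPS, a log2 change of 4.89 (SE 0.22, adjusted p = 1.47e-08). Gbp5 had values of 0.0567, 0.101 and 0.0834 in untreated cells and 14.0, 22.5 and 29.4 with LPS, a log2 change of 4.35 (SE 0.22, adjusted p = 3.36e-08). Gbp6 rose by 4.67 (adjusted p = 1.19e-08; it shares bases with Gm43302). All 16 members were lowest in LPS replicate 1 among the LPS libraries. Members of this family and of the class I family are similar in sequence, and how reads shared between copies were counted is not given in the sources used here.

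All 20 class I antigen presentation genes were higher, with and without scaling (median 1.82). H2-K1, a classical heavy chain, had values of 164, 152 and 149 in untreated cells and 469.9, 790.5 and 945 with LPS, a log2 change of 2.18 (SE 0.22, adjusted p = 8.61e-06). B2m, the light chain, had values of 863, 807 and 793 in untreated cells and 1964, 2843 and 3326 with LPS, a log2 change of 1.69 (SE 0.16, adjusted p = 4.78e-06). Psme2, an activator of the proteasome, had values of 122, 112 and 118 in untreated cells and 386, 499 and 491 with LPS, a log2 change of 1.95 (SE 0.11, adjusted p = 7.85e-08). H2-D1, the other classical heavy chain on the list, rose by 1.12 (adjusted p = 3.68e-04), the smallest change of those named. H2-T22 and Tapbp rose by 3.31 and 2.27, and both share bases with a neighbouring gene.

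Class II genes did not move together. Of 9 tested 4 were higher and 1 lower. H2-Ab1, the class II beta chain, had values of 0.621, 0.522 and 0.644 in untreated cells and 20.6, 26.5 and 22.9 with LPS, a log2 change of 3.92 (SE 0.17, adjusted p = 9.79e-09). Cd74, the invariant chain, had values of 3.03, 3.96 and 2.77 in untreated cells and 10.9, 28.6 and 32.4 with LPS, a log2 change of 2.43 (SE 0.31, adjusted p = 4.73e-05). H2-Aa, the alpha chain, reached 4.44, 11.4 and 11.9. All 3 chains were lowest in LPS replicate 1 among the LPS libraries. Ifi30, a lysosomal thiol reductase, fell from 196, 189 and 176 to 98.7, 102 and 101. Ctss, the protease that trims the invariant chain, had values of 1859, 1731 and 1666 in untreated cells and 1452, 1845 and 2342 with LPS; its groups overlapped, and it was called higher under scaling. Ciita, the activator of class II transcription, stayed at or below 0.0464 in all 6 libraries. Of 15 costimulatory and checkpoint genes 9 were higher and 5 lower. Cd274, which encodes PD-L1, had values of 3.69, 3.69 and 4.08 in untreated cells and 47.0, 50.3 and 61.1 with LPS, a log2 change of 3.47 (SE 0.13, adjusted p = 5.25e-09). Cd40 had values of 1.01, 0.818 and 0.585 in untreated cells and 14.9, 14.9 and 13.9 with LPS, a log2 change of 3.12 (SE 0.18, adjusted p = 8.59e-08). Cd83 went the other way, with values of 3.00, 3.90 and 3.61 in untreated cells and 0.150, 0.141 and 0.0584 with LPS, a log2 change of -2.01 (SE 0.08, adjusted p = 8.08e-09). Cd69, an activation antigen, rose by 3.25 (adjusted p = 6.37e-09) and Cd86, a ligand of CD28, by 1.33 (adjusted p = 4.90e-05).

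**Figure D2:**
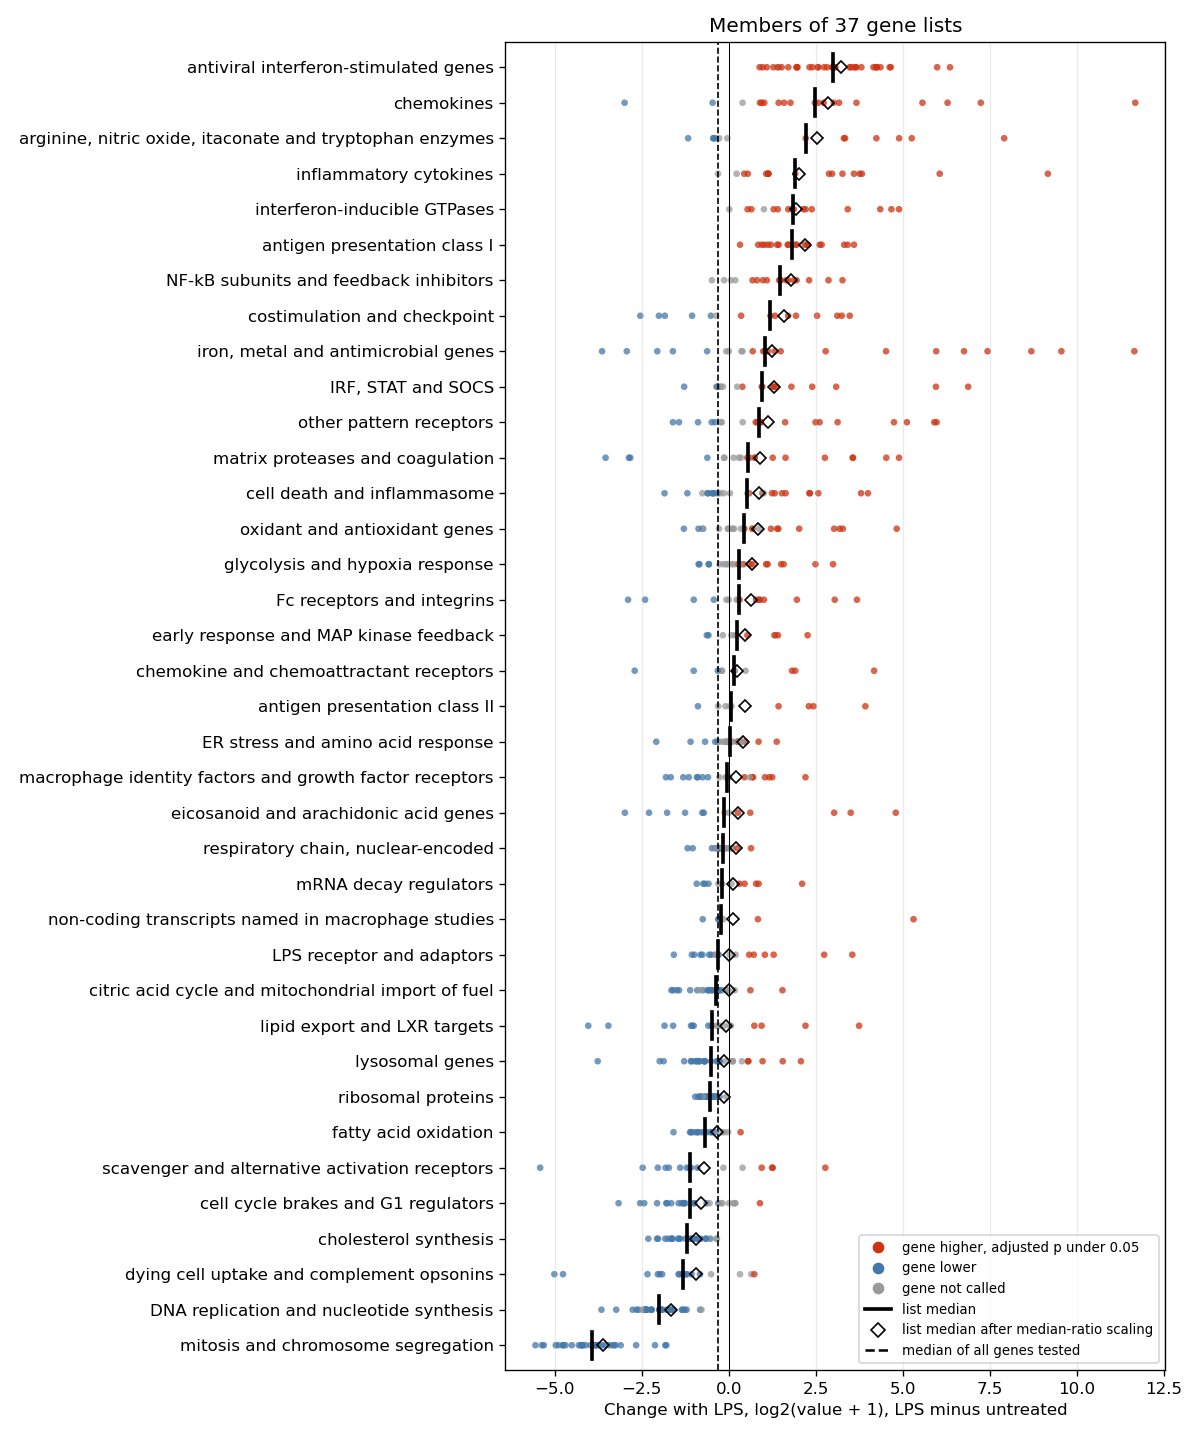
Change with LPS on the scale log2(value + 1) of each tested member of 37 gene lists, coloured by call, with the list median (bar) and its median after median-ratio scaling (diamond). The dashed line is the median of all 10476 genes, at -0.31. Antiviral genes have the highest median (2.98) and mitosis genes the lowest (-3.92).

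Both arginases and the enzymes around nitric oxide rose in the same cells. Arg1, which makes ornithine from arginine and is often used as a sign of alternative activation, had values of 1.74, 1.90 and 1.59 in untreated cells and 85.2, 70.6 and 85.9 with LPS, a log2 change of 4.89 (SE 0.11, adjusted p = 1.73e-10). Arg2 had values of 0.401, 0.558 and 0.363 in untreated cells and 14.4, 12.1 and 13.3 with LPS and shares bases with Vti1b. Nos2, the inducible nitric oxide synthase that uses the same substrate, was listed at 0 in all untreated libraries and at 4.38, 9.57 and 17.3 with LPS (adjusted p = 1.19e-05). Ass1, which regenerates arginine from citrulline, rose from 6.74, 7.96 and 5.78 to 200.3, 128 and 121. Slc7a2, an arginine transporter named after its values were seen, reached 141, 80.0 and 30.0 from 0.782, 1.09 and 0.721. Nos2 was lowest in LPS replicate 1 and Ass1 and Slc7a2 highest there, while Arg1 differed little between them. Acod1, the itaconate-producing enzyme, also had LPS values close to each other (379.6, 335 and 329). Of 13 genes on this list 7 were higher and 4 lower, and under scaling 7 and 1.

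The prostaglandin and leukotriene genes moved in opposite directions. Ptgs1, the constitutive cyclooxygenase, had values of 14.9, 11.9 and 13.2 in untreated cells and 2.05, 1.89 and 1.8 with LPS, a log2 change of -2.29 (SE 0.09, adjusted p = 5.71e-09). Ptgs2, the inducible one, had values of 0.0587, 0.142 and 0.0805 in untreated cells and 51.0, 7.67 and 3.21 with LPS, a log2 change of 3.50 (SE 0.68, adjusted p = 9.92e-04). Ptges, which converts their product to prostaglandin E2, had values of 0.212, 0.292 and 0.237 in untreated cells and 48.2, 33.1 and 23.8 with LPS, a log2 change of 4.80 (SE 0.23, adjusted p = 2.69e-08). The Ptgs1 values of the LPS libraries lay close together, while Ptgs2 was high mainly in LPS replicate 1. Alox5, the first enzyme of leukotriene synthesis, fell by 1.26 (adjusted p = 2.11e-07). Pla2g7, which degrades platelet-activating factor, rose from 117, 87.4 and 93.3 to 1248, 561 and 758. Of 13 genes on the list 5 were higher and 6 lower, and under scaling 6 and 5. Without untreated replicate 1 the higher genes numbered 3.

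Oxidant and antioxidant genes rose in part. Of 23 tested 10 were higher and 3 lower (median 0.45). Sod2, the mitochondrial superoxide dismutase, had values of 10.9, 10.6 and 10.6 in untreated cells and 349.8, 331 and 309.9 with LPS, a log2 change of 4.82 (SE 0.11, adjusted p = 1.42e-10). Cybb, the catalytic subunit of the phagocyte oxidase, had values of 37.3, 41.8 and 43.9 in untreated cells and 462, 322 and 265 with LPS, a log2 change of 3.03 (SE 0.17, adjusted p = 7.96e-08). Hmox1, which degrades haem, rose from 502, 504 and 391 to 2019, 1685 and 1949.6. The Sod2 values were alike within each group. Prdx1 rose by 1.21 (adjusted p = 0.00997), with 5797, 2054 and 1749 in LPS replicates 1 to 3 and 1270.4, 1154 and 1148 untreated. Without LPS replicate 1 its change was 0.67. Prdx5 reached 1374, 1498 and 1369 and shares bases with Trmt112. Cyba and Txn1 rose by 0.45 and 0.68. Without LPS replicate 1 the lower genes numbered 7 in place of 3. In 15 of the 23 genes the highest LPS value was that of LPS replicate 1.

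The acute phase, complement and iron list held 4 of the 12 largest rises of single genes. Lcn2, which binds bacterial iron carriers, had values of 3.14, 2.70 and 3.79 in untreated cells and 1925, 1801 and 1490.3 with LPS, a log2 change of 8.69 (SE 0.26, adjusted p = 7.67e-10). C3, the central complement component, had values of 2.73, 3.43 and 3.75 in untreated cells and 187, 294 and 339 with LPS, a log2 change of 5.96 (SE 0.18, adjusted p = 9.60e-10). Hp, the haemoglobin scavenger haptoglobin, had values of 0.228, 0.375 and 0.206 in untreated cells and 242, 220.5 and 194 with LPS, a log2 change of 7.43 (SE 0.16, adjusted p = 9.78e-11). Lcn2 and Hp differed little between LPS libraries, while C3 was lowest in LPS replicate 1. Cfb, complement factor B, reached 861, 1386 and 1395 from below 1 and shares bases with Gm20547. Saa3 (chromosome 7, 46711998 to 46715700) had values of 8.16, 6.71 and 7.24 in untreated cells and 27837, 49516 and 14007 with LPS. It accounted for 7.44%, 12.9% and 3.89% of the library sum in LPS replicates 1, 2 and 3. Slpi, a protease inhibitor, stood at 1388, 151 and 63.2 in LPS replicates 1 to 3, with the first far above the others. Fth1, the ferritin heavy chain, rose from 10688, 11217 and 10029 to 24564, 25688 and 29320.0, while Ftl1, the light chain, fell from 13179, 10574 and 12045 to 7547, 7643 and 7959. The Ftl1 fall was not called under scaling (-0.24, adjusted p = 0.11), and the gene shares bases with Gm10252. Tfrc, the transferrin receptor, named after its values were seen, fell from 94.3, 130.4 and 134 to 11.7, 8.11 and 6.53. Lyz2 did not differ beyond the spread (-0.08, adjusted p = 0.578). Of 23 genes 14 were higher and 5 lower. The neutrophil markers given above rose beside these genes, with Ly6g at or near 0.

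Matrix and coagulation proteases moved in both directions. Mmp14, a membrane-bound matrix protease, had values of 3.58, 4.62 and 4.55 in untreated cells and 203, 145 and 124 with LPS, a log2 change of 4.89 (SE 0.17, adjusted p = 2.04e-09). Plau, the urokinase plasminogen activator, had values of 87.3, 95.5 and 74.6 in untreated cells and 5.61, 6.49 and 7.26 with LPS, a log2 change of -3.54 (SE 0.11, adjusted p = 1.10e-09). Timp2, an inhibitor of matrix proteases, fell by 2.83 (adjusted p = 6.72e-09), and F10, coagulation factor X, rose by 3.57 (adjusted p = 4.45e-09). All 4 had groups that did not overlap. Acp5 and Mmp9, often named with osteoclasts, were also higher, at 111, 95.1 and 73.5 and 25.7, 7.76 and 3.91, while Ocstamp, Dcstamp and Calcr stayed below the filter. Of 20 genes on the protease and coagulation list 10 were higher and 4 lower. Chil1, a chitinase-like protein, rose from at most 0.253 to 387, 325 and 215. Ms4a4c, a four-span membrane protein, reached 67.0, 308 and 493 and was lowest in LPS replicate 1. U90926 reached 204, 132 and 109 and was highest there.

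More receptors of uptake were lower than higher, and Marco had the largest rise. Of 16 scavenger and alternative activation receptors 4 were higher and 10 lower (median -1.11, 4 and 8 under scaling). Over all genes 13.8% were higher and 47.9% lower. At least 2-fold changes were seen in 3 higher and 9 lower receptors, against 6.09% and 13.8% of all genes. Clec10a, a lectin for galactose-type sugars, had values of 6.61, 5.89 and 5.84 in untreated cells and 0.352, 0.252 and 0.233 with LPS, a log2 change of -2.48 (SE 0.08, adjusted p = 2.07e-09). Colec12 had values of 6.08, 7.29 and 7.58 in untreated cells and 1.46, 1.19 and 1.13 with LPS, a log2 change of -1.82 (SE 0.10, adjusted p = 5.68e-08). Marco, a scavenger receptor for bacteria, had values of 453, 423 and 484 in untreated cells and 2496, 3226 and 3693 with LPS, a log2 change of 2.77 (SE 0.14, adjusted p = 3.42e-08). Marco was higher in every LPS library, while Clec10a and Colec12 were lower in every one. The mannose receptor gene Mrc1 fell from 252, 325 and 305 to 3.82, 6.14 and 8.39. Cd36, the receptor for oxidised lipid, fell by 1.09 (adjusted p = 0.00132), least in LPS replicate 1 (642, 326 and 312 in LPS replicates 1 to 3). The second controls had Cd36 at 117, 121 and 188, below every LPS value.

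Genes that let macrophages take up dying cells were mostly lower. Of 18 genes of dying cell uptake and opsonins 1 was higher and 14 lower (median -1.31), and under scaling 2 and 13. Gas6, which links phosphatidylserine to the receptors AXL and MERTK, had values of 307, 358 and 333 in untreated cells and 5.99, 9.76 and 13.6 with LPS, a log2 change of -5.01 (SE 0.21, adjusted p = 7.73e-09). Pros1, protein S, the second such bridge, had values of 12.5, 13.4 and 14.5 in untreated cells and 1.38, 2.09 and 2.18 with LPS, a log2 change of -2.34 (SE 0.12, adjusted p = 3.06e-08). Stab1, a receptor for phosphatidylserine, fell from 229.7, 347 and 273 to 63.3, 67.1 and 71.3 and shares bases with Nt5dc2. Cd5l, a secreted scavenger protein, had values of 77.9, 70.6 and 90.6 in untreated cells and 1.17, 2.01 and 2.95 with LPS, a log2 change of -4.76 (SE 0.21, adjusted p = 1.19e-08). Gas6, Pros1 and Cd5l were all lowest in LPS replicate 1. The second controls had Cd5l at 0.953, 0.785 and 1.37, overlapping the LPS values and far below the untreated values above.

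The second controls were also set beside all genes that changed at least 2-fold. Of the 638 genes at least 2-fold higher, 569 (89.2%) had all LPS values above all 3 of them. Of the 1447 at least 2-fold lower genes, 1214 (83.9%) had all LPS values below them. On the opposite side lay 3 and 46 genes. Cd14 stood at 38.8, 37.7 and 36.0 in the second controls, between its untreated and LPS values, and Cd274 at 0.420, 0.368 and 0.374; both were named after their values were seen. Among the named genes whose LPS range overlapped that of the second controls were Cd68, Ftl1, Ifi30, Etfdh, Cd74, Gpr84, Itgal, Slc2a1, Slc3a2, Hk2, Cycs and Aldoa.

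Macrophage identity genes moved in both directions. Of 21 transcription factors and growth factor receptors 7 were higher and 8 lower. Nr1h3, which encodes the sterol receptor LXR-alpha, had values of 7.27, 6.91 and 7.54 in untreated cells and 20.3, 46.1 and 53.2 with LPS, a log2 change of 2.2 (SE 0.27, adjusted p = 3.60e-05). Csf1r, the receptor for the growth factor in L929 supernatant, rose by 0.45 (adjusted p = 7.73e-04; it shares bases with Hmgxb3) to 352, 333 and 312, all below the second controls, at 581, 623 and 531. Csf2rb, the shared receptor chain for GM-CSF, had values of 12.1, 14.8 and 14.9 in untreated cells and 45.9, 31.5 and 28.0 with LPS, a log2 change of 1.25 (SE 0.15, adjusted p = 3.88e-05). All 3 were higher in every LPS library than in the untreated libraries of the same table. Bach1, a repressor regulated by haem, fell by 0.92 (adjusted p = 8.72e-06), and Maf, a transcription factor of tissue macrophages, fell by 1.15 (adjusted p = 6.91e-06; it shares bases with Gm15655). Cx3cr1 and Ccr7 stayed below the filter. Among Fc receptors and integrins 8 of 16 were higher and 4 lower. Fcrls, an Fc receptor-like gene, had values of 25.8, 23.6 and 24.3 in untreated cells and 2.41, 2.40 and 2.51 with LPS, a log2 change of -2.89 (SE 0.07, adjusted p = 2.86e-10), and its LPS values were nearly equal. Itgal, the alpha chain of LFA-1, had values of 6.92, 8.66 and 8.76 in untreated cells and 109, 140.4 and 100.0 with LPS, a log2 change of 3.68 (SE 0.19, adjusted p = 3.68e-08). Fcer1g, the signalling chain of Fc receptors, rose by 0.78 (adjusted p = 2.15e-05). Itga6, the laminin receptor chain, had values of 35.3, 44.6 and 43.5 in untreated cells and 7.09, 6.72 and 6.93 with LPS, a log2 change of -2.41 (SE 0.10, adjusted p = 8.39e-09).

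Cholesterol synthesis genes were lower, and lipid export genes were mixed. Of 25 cholesterol synthesis genes 24 passed the filter; none was higher and 22 were lower (21 under scaling, median -1.20). Sqle, squalene epoxidase, had values of 17.3, 19.1 and 16.6 in untreated cells and 4.51, 4.44 and 4.69 with LPS, a log2 change of -1.75 (SE 0.09, adjusted p = 3.15e-08). Insig1, which senses sterol in the endoplasmic reticulum, had values of 14.0, 12.8 and 11.4 in untreated cells and 3.38, 3.63 and 3.19 with LPS, a log2 change of -1.64 (SE 0.08, adjusted p = 4.01e-08). The mean over this list was nearly the same in the 3 LPS libraries, at -1.25, -1.22 and -1.26 relative to the untreated mean on the log2 scale. Among 19 lipid export and LXR targets 4 were higher and 10 lower (4 and 8 under scaling), a share near that of all genes. Apoe, the apolipoprotein that carries cholesterol out of macrophages, had values of 2126, 2147 and 2635 in untreated cells and 757, 558 and 609 with LPS, a log2 change of -1.85 (SE 0.16, adjusted p = 2.06e-06). Fabp4, a fatty acid carrier, had values of 103, 95.2 and 98.2 in untreated cells and 4.18, 4.65 and 6.63 with LPS, a log2 change of -4.04 (SE 0.15, adjusted p = 4.39e-09), and Fabp5 fell from 1624, 1347 and 1482 to 64.0, 145 and 256. In the second controls both were below every LPS value, with Fabp4 at 1.36, 1.51 and 1.12 and Fabp5 at 36.3, 29.2 and 30.6. Acsl1, which activates fatty acids, rose from 6.73, 10.4 and 8.01 to 154, 136 and 88.4.

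Lysosomal genes were mostly lower, but this depended on scaling. Of 31 tested 5 were higher and 20 lower, and under scaling 9 and 14. Atp6v0d2, a proton pump subunit, had values of 18.7, 18.9 and 24.4 in untreated cells and 0.692, 0.580 and 0.473 with LPS, a log2 change of -3.77 (SE 0.11, adjusted p = 6.16e-10). Gpnmb had values of 2125, 1543 and 1368 in untreated cells and 489, 389 and 478 with LPS, a log2 change of -1.87 (SE 0.18, adjusted p = 5.00e-06), but the second controls stood far below the LPS values, at 57.6, 46.4 and 45.4. Hexa, a ganglioside-degrading enzyme, fell by 0.91 (adjusted p = 1.49e-06) and Npc1, a lysosomal cholesterol exporter, by 1.28 (adjusted p = 5.11e-07; it shares bases with Rmc1). Ctsz, cathepsin Z, rose from 522, 505 and 474 to 899.8, 1019.8 and 1024. The cathepsins did not share a direction, as Ctsb, which shares bases with Fdft1, fell by 1.09, and Ctsd and Ctsa, which share bases with Gm49369 and Pltp, by 0.98 and 0.69. Ctsl changed by -0.28 (adjusted p = 0.0524), and by -0.40 (adjusted p = 0.00619) without LPS replicate 3. The membrane proteins Lamp1 and Cd63 fell by 0.69 and 0.71 (adjusted p = 1.43e-05 and 4.72e-05), and these falls were smaller but still called under scaling (-0.30 and -0.32). Against the second controls several of these falls were not seen. All LPS values lay above them for Ctsd, Lamp1 and Cd63, with Ctsd at 2782, 2517 and 2623, Lamp1 at 409.8, 344 and 370.0 and Cd63 at 407, 359 and 375 there. Atp6v0d2, Hexa, Npc1, Ctsb and Ctsa had LPS values that overlapped them.

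Glycolysis and hypoxia genes were mixed, with 11 of 24 higher and 4 lower, and 17 and 2 under scaling. Pfkfb3, which makes the activator of phosphofructokinase, had values of 9.23, 11.3 and 10.1 in untreated cells and 72.1, 77.2 and 122 with LPS, a log2 change of 2.99 (SE 0.18, adjusted p = 1.58e-07). Slc2a1, the glucose transporter GLUT1, had values of 9.28, 10.8 and 8.09 in untreated cells and 41.8, 27.8 and 22.7 with LPS, a log2 change of 1.58 (SE 0.22, adjusted p = 8.60e-05). Both were higher in every LPS library, but the highest was LPS replicate 3 for Pfkfb3 and LPS replicate 1 for Slc2a1. Hk2, an inducible hexokinase, rose by 1.12 (adjusted p = 1.24e-05). The platelet phosphofructokinase gene Pfkp fell by 0.87 (adjusted p = 5.76e-05) and shares bases with Pitrm1. Aldoa, an abundant enzyme of the pathway, was called higher (0.28, adjusted p = 0.0496) with overlapping groups, a call lost without untreated replicate 2 or 3 or LPS replicate 1 or 2 (adjusted p up to 0.144). Gapdh and Pkm, late enzymes of the pathway, had changes of 0.16 and 0.33 (adjusted p = 0.213 and 0.128) and were called higher under scaling, Pkm also without untreated replicate 2 (0.48, adjusted p = 0.0473). Hif1a, the hypoxia factor, had values of 16.6, 20.7 and 19.5 in untreated cells and 34.6, 32.0 and 26.4 with LPS, a log2 change of 0.68 (SE 0.25, adjusted p = 0.037). That call was lost when any library except LPS replicate 3 was left out, with adjusted p up to 0.108.

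Among mitochondrial genes, those of fatty acid oxidation were mostly lower, and the other lists stood nearer to all genes. Over all genes 47.9% were lower, and 26.9% under scaling. Of 28 citric acid cycle and import genes 2 were higher and 18 lower, and under scaling 5 and 8. The list medians were -0.37 and 0.00 under scaling, near those of all genes (-0.31 and 0.01). Suclg2, a succinyl-CoA ligase subunit, had values of 9.19, 9.11 and 9.17 in untreated cells and 2.06, 2.38 and 2.28 with LPS, a log2 change of -1.65 (SE 0.08, adjusted p = 3.37e-08). Idh2, the mitochondrial isocitrate dehydrogenase, had values of 81.0, 71.0 and 73.8 in untreated cells and 21.0, 26.4 and 25.4 with LPS, a log2 change of -1.60 (SE 0.12, adjusted p = 1.02e-06). Fh1, fumarate hydratase, fell by 1.11 (adjusted p = 2.31e-07), with LPS values that differed little. These 3 remained lower under scaling, at -1.33, -1.22 and -0.75. Of 17 fatty acid oxidation genes 1 was higher and 13 lower (4 and 10 under scaling), with Hadh down by 1.59 and Etfdh by 1.06. Their medians were -0.70 and -0.33 under scaling. Of 23 nuclear-encoded respiratory chain genes 2 were higher and 7 lower, and under scaling the balance turned to 6 and 2 (medians -0.18 and 0.20). Cycs, cytochrome c, rose by 0.64 (adjusted p = 7.85e-05) and Ndufa4 fell by 1.04 (adjusted p = 1.93e-05).

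Genes of the amino acid and endoplasmic reticulum stress response showed no common direction. Of 25 tested 4 were higher and 5 lower, against 13 and 2 under scaling, and only 2 were higher without untreated replicate 3 or LPS replicate 2. Psat1, an enzyme of serine synthesis, had values of 16.5, 15.7 and 14.2 in untreated cells and 2.44, 3.32 and 2.90 with LPS, a log2 change of -2.08 (SE 0.14, adjusted p = 3.16e-07). Slc3a2, the heavy chain of amino acid exchangers, had values of 63.1, 99.4 and 86.0 in untreated cells and 312, 161 and 193 with LPS, a log2 change of 1.38 (SE 0.24, adjusted p = 4.96e-04). Among 25 cell death and inflammasome genes 11 were higher and 8 lower (13 and 2 under scaling). Without untreated replicate 2 the lower ones numbered 3, and without untreated replicate 1 they numbered 5. Casp4, the mouse caspase-11 that senses cytosolic LPS, had values of 8.66, 9.37 and 7.58 in untreated cells and 29.5, 29.4 and 26.6 with LPS, a log2 change of 1.63 (SE 0.11, adjusted p = 4.22e-07). Traf1 reached 26.5, 17.7 and 12.6 from below 1. Bcl2a1a and Bcl2a1d, survival genes of a family of near-identical copies, rose by 4.00 and 2.31, and reads may have been split between copies.

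**Figure D3:**
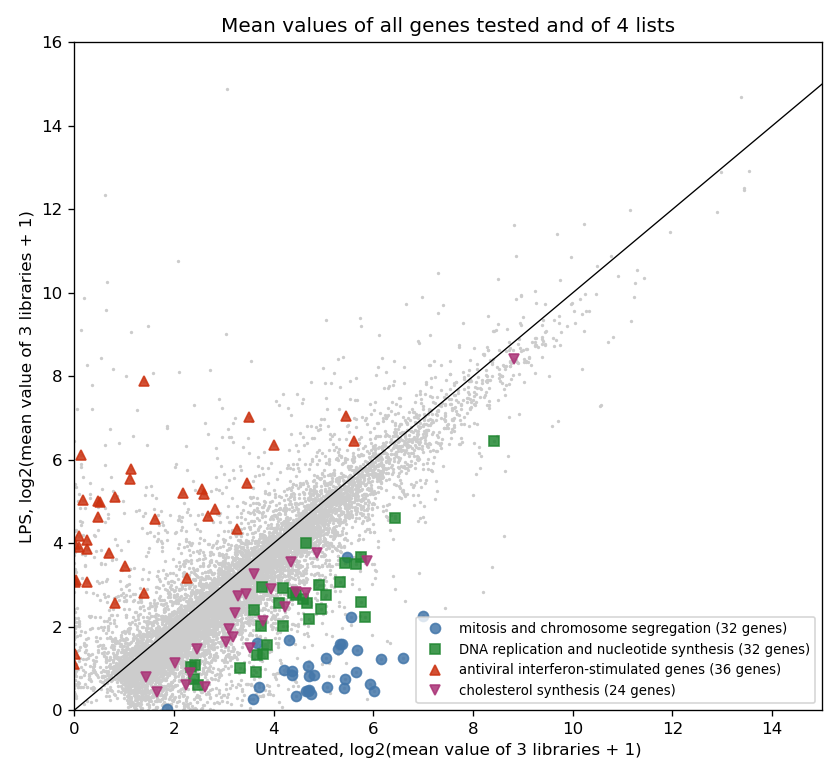
Mean of 3 untreated libraries (horizontal) against mean of 3 LPS libraries (vertical), both as log2(mean value + 1), for all genes tested (grey) and 4 lists. The line marks equal means. All 32 mitosis genes lie below the line and all 36 antiviral genes above it.

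The mitosis list had the lowest median of the 37 lists. All 32 mitosis genes were lower, with and without scaling (median -3.92). Ccnb1, the cyclin of mitotic entry, had values of 41.4, 40.2 and 44.9 in untreated cells and 0.794, 0.538 and 0.676 with LPS, a log2 change of -4.69 (SE 0.09, adjusted p = 3.11e-11). Plk1, a mitotic kinase, had values of 18.5, 21.9 and 22.3 in untreated cells and 0.137, 0.372 and 0.286 with LPS, a log2 change of -4.11 (SE 0.09, adjusted p = 1.42e-10). Top2a, which untangles DNA strands, had values of 101, 128 and 148 in untreated cells and 2.17, 4.61 and 4.51 with LPS, a log2 change of -4.76 (SE 0.23, adjusted p = 2.15e-08). No LPS value of these genes came near an untreated one. Birc5, the survivin of the chromosomal passenger complex, fell from 75.1, 67.9 and 66.2 to 0.597, 1.38 and 1.99, and the proliferation marker Mki67 from 15.1, 25.7 and 34.2 to 1.00, 0.665 and 0.582. Bub1b, a kinase of the spindle checkpoint, fell by 3.82 (adjusted p = 1.78e-10). Ube2c, the ubiquitin enzyme of the anaphase complex, fell by 5.37, Prc1, a spindle bundling protein, by 5.31 and Cenpa, the centromeric histone, by 4.91. Prc1 shares bases with Rccd1. Stmn1, a microtubule destabiliser, fell from 162, 176 and 175 to 2.79, 4.78 and 5.66, and Cdca3 from 52.6, 46.6 and 47.8 to 0.382, 0.850 and 1.39. Mrnip, on no list, had a fall of the same size (5.56, adjusted p = 6.53e-04), but it shares bases with Sqstm1 and its value is uncertain.

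DNA replication genes fell less far. Of 32 tested 30 were lower and none higher (median -2.0), also under scaling. Pcna, the sliding clamp of DNA polymerases, had values of 362, 334 and 329.9 in untreated cells and 69.4, 86.4 and 102 with LPS, a log2 change of -2.0 (SE 0.12, adjusted p = 1.19e-07). Rrm2, a subunit of ribonucleotide reductase, had values of 53.3, 57.7 and 55.9 in untreated cells and 1.99, 5.0 and 4.01 with LPS, a log2 change of -3.66 (SE 0.26, adjusted p = 5.40e-07). Pola1, the catalytic subunit of the priming polymerase, had values of 8.75, 13 and 12.7 in untreated cells and 0.316, 0.896 and 1.41 with LPS, a log2 change of -2.76 (SE 0.21, adjusted p = 8.34e-07). Each was lowest in LPS replicate 1, as were 30 of the 32 genes. Tyms, thymidylate synthase, fell by 2.41 (adjusted p = 3.21e-07). Cell cycle brakes did not rise as a group, with 1 of 24 brakes and regulators of the first growth phase higher and 16 lower (3 and 13 under scaling). Cdkn1a, which encodes the inhibitor p21, had values of 27.8, 31.6 and 22.5 in untreated cells and 31.5, 30.6 and 20.7 with LPS, a change of 0.00 (adjusted p = 0.994) with overlapping groups. Cdkn2c, the inhibitor p18, had values of 11.4, 11.0 and 11.9 in untreated cells and 0.241, 0.566 and 0.353 with LPS, a log2 change of -3.17 (SE 0.09, adjusted p = 6.73e-10). E2f8, a repressor of cell cycle genes, fell by 2.43 (adjusted p = 2.31e-07).

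Ribosomal protein genes were lower by a small step that scaling largely removed. Of 30 tested 26 were lower and none higher, and under scaling 5 were lower and 1 higher. Rpl3 had values of 518, 464 and 475 in untreated cells and 279.5, 255 and 258 with LPS, a log2 change of -0.88 (SE 0.12, adjusted p = 6.51e-05), and stayed lower under scaling at -0.49. Rpl23 fell by 0.55 (adjusted p = 2.42e-04), against -0.16 under scaling (adjusted p = 0.182). Rpl19 and Rps9, which fell by 0.27 and 0.35, changed sign under scaling, to 0.12 and 0.04, and their adjusted p reached 0.154 without untreated replicate 1 and 0.172 without untreated replicate 2. The non-coding transcript AW112010 had values of 5.91, 5.09 and 5.85 in untreated cells and 144, 291 and 419 with LPS, a log2 change of 5.31 (SE 0.30, adjusted p = 7.45e-08). Of 6 such transcripts 2 were higher and 3 lower.

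**Figure D4:**
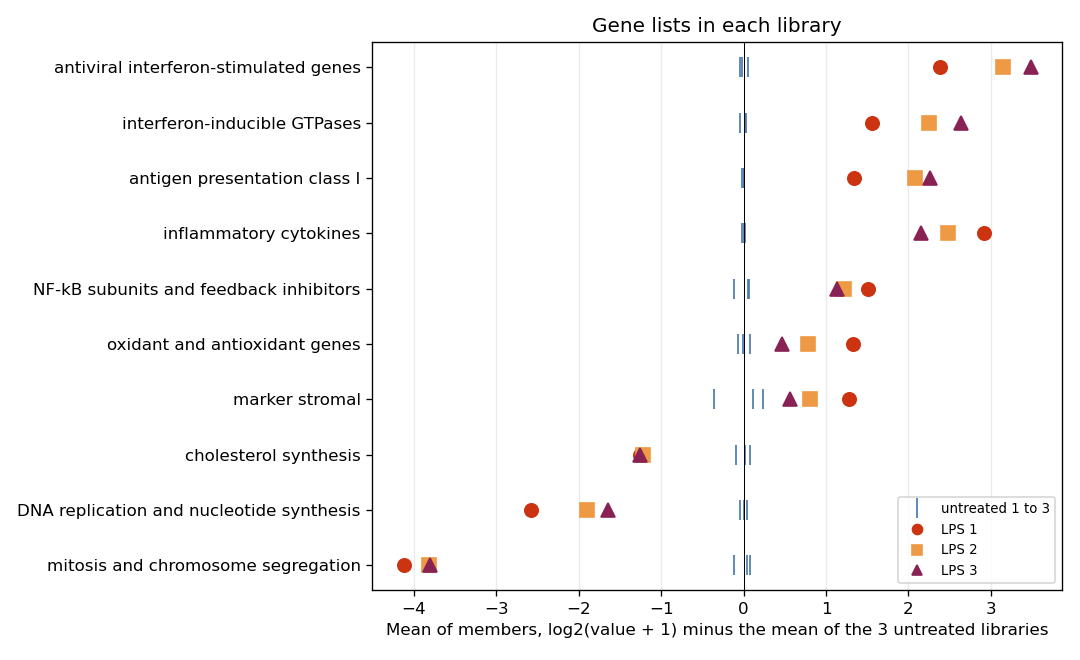
Mean of each list's tested members in every library, on the scale log2(value + 1), minus the mean of the 3 untreated libraries, for 10 lists. LPS replicate 1 (circle) stands lowest for the 3 interferon and class I lists and highest for cytokines, NF-kB, oxidant and stromal genes; for cholesterol synthesis the 3 LPS libraries coincide.

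The lists ordered the LPS libraries in opposing ways. Antiviral genes stood 2.38, 3.14 and 3.48 above the untreated mean in LPS replicates 1, 2 and 3 (mean over members, log2 scale). Inflammatory cytokines stood 2.92, 2.48 and 2.15 above it, and oxidant and antioxidant genes 1.32, 0.78 and 0.47. Replication genes had -2.58, -1.89 and -1.65, so the fall was deepest in LPS replicate 1. The stromal markers tested had 1.28, 0.80 and 0.57, highest in LPS replicate 1 too. The part of stromal RNA in these differences was not tested, and the labels give no difference between the 3 libraries.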

How the data were processed

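Total RNA from the 6 macrophage cultures was extracted with phenol and chloroform (PeqGold), per the labels. The submitters' processing notes name HISAT2 2.0.5, Trim Galore 0.4.1, FastQC 0.11.5 and CASAVA 1.8.2, with the builds mm10 and mm9, and give no roles or order. How the values were computed is not given in the sources used here. The authors deposited 1 value per gene and library, a score with decimal commas and no unit in the file header. The values resemble a level normalised for length and depth and are not counts, so limma took the place of a count test. Gene coordinates equalled those of GENCODE M21 (GRCm38) for 46773 of 50645 genes, and 50336 gene IDs had a symbol; 36 displaced rows of 17 gene IDs were left out.

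Values were taken as log2(value + 1) for the 10476 genes at 1 or more in at least 3 of the 12 libraries of the table. Limma 3.58.1 (R 4.3.3) with a mean-variance trend was fitted to the 12 libraries in 4 groups of 3, and the contrast of the LPS and untreated groups was adjusted over all genes by the Benjamini-Hochberg method. Tables and figures were made with Python 3.11.15, pandas 2.3.3, numpy 2.4.6 and matplotlib 3.10.9. No depth is known, so the 3 libraries in each group set the precision. Alternatives were another filter, pseudocount, scaling and set of libraries, each library left out, and the replicate number as a block.

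The comparison, its 37 gene lists and 11 marker lists, and the tests were chosen with earlier results of these data known. Genes named are the 12 largest rises and 12 largest falls with a mean of at least 10 and groups that do not overlap, up to 4 members of each list with the smallest adjusted p and members with a mean of at least 500 (not all of these are printed), 31 genes of interest, and the 10 genes with the widest spread among LPS libraries. Slc7a2 and Tfrc, the markers near 0, the intron-free genes and the neighbouring genes fall outside this rule and were chosen after their values were seen. Promoters of 7706 tested genes were matched to RefSeq. A gene is said to share bases with another where annotated exons overlap by at least 50 bases.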

Additional observations from a re-analysis of the deposited data

How the results depend on the processing

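Median-ratio scaling changed the balance of calls most. It gave 2847 genes higher and 2822 lower, with 906 at least 2-fold lower, so that 50.2% of calls were higher against 22.3% without it; 4266 calls kept their direction and 5 took the other. A minimum value of 5 gave 4303 changed and 3213 lower of 6809 genes tested, a smaller set by construction. No filter (8104 changed), a pseudocount of 0.1 (6417) and the 6 libraries alone (5800) left every count within 1.5 times. Leaving out each library in turn gave 5872 to 6357 changed, 1280 to 1459 higher and 4508 to 4955 lower genes, and 5364 genes kept their call and direction in all 6 of these fits.

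With the replicate block, 5183 genes were called over 6 libraries and 6364 over 12. Each library was also expressed as deviations from the mean of its group, gene by gene. Correlations of these deviations between same-numbered untreated and LPS libraries were -0.0142, 0.023 and 0.0608, so the numbers were not taken to pair the samples. Of the genes named and called, Rpl19 and Rps9 changed sign under scaling, to 0.12 and 0.035. Chmp4b went from -1.51 to 0.55 as LPS replicate 3 or 2 was left out. Under scaling 190 of 198 named genes kept their call or stayed uncalled, and those called kept their direction. Genes uncalled in both fits could change sign within this count, as Lyz2 and Ctsl did, to 0.31 and 0.10.

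With 3 libraries a group, unknown depth and an unstated unit, small changes and genes near a value of 1 are uncertain.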

Other observations

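Some genes at least 2-fold higher lay side by side, which was not set against chance. Counting genes tested in order along each chromosome, 15 runs of at least 4 neighbours were all at least 2-fold higher. The longest, on chromosome 17 (34187553 to 34316674), held 8 genes from Tap1 to H2-Eb1, with log2 changes of 1.23 to 3.92. On chromosome 15 (74955051 to 75111970) Ly6e, Ly6i, Ly6a, Ly6c1 and Ly6c2, which encode small surface proteins of the Ly6 family, rose by 2.40 to 6.40. Phf11a to Phf11d with Gm6904 on chromosome 14 rose by 1.17 to 4.06. Bst1 and Cd38, both enzymes of NAD metabolism, lay in a run of 5 on chromosome 5 with changes of 1.06 to 3.96. Members of such families are similar in sequence, and overlapping models count as separate genes here.

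Several of the genes with the widest spread among LPS libraries also differed among untreated ones or had a single low library. Hdac7 had values of 0.710, 1.51 and 60.4 in untreated cells and 1.06, 76.1 and 163.7 with LPS. Surf2 stood at 212, 199.9 and 7.37 with LPS against 101, 116 and 111 untreated. Chmp4b stood at 124, 9.32 and 180.3 against 105, 101 and 98.9. Rabepk stood at 106, 130.4 and 3.24 against 4.38, 3.66 and 3.17. Its call (3.05, adjusted p = 0.0194) was lost without untreated replicate 3, LPS replicate 1 or LPS replicate 2, with adjusted p up to 0.0804. The second controls, also untreated, had Rabepk at 133, 6.12 and 139, overlapping the LPS values. Pdss1 stood at 0.652, 35.0 and 5.69 against 2.99, 3.58 and 3.18. Mir6376, inside Rpn1, stood at 111.5, 0.338 and 129 against 69.2, 0 and 0.572.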
